A study of Rattus norvegicus with 93 samples.

Results

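The 39 genes described here belong to the hypoxia response and to glycolysis, and they were followed through the healing of circular holes in the rat skull roof. They were taken by symbol from a list chosen with earlier results of these data known, and not by a cut on measured values. All 39 had a probe on the array, and 15974 genes were tested in all. Defects of 4 or 8 mm across were made in the calvaria of male rats aged 12 weeks. The design labels the 8 mm hole CSD, the usual abbreviation for a critical-size defect, and the 4 mm hole non-CSD, and neither received any further treatment. The bone disc was taken out, the dura mater stayed in place, and the healing tissue was collected with a trephine at day 1, 3, 5, 7, 10, 14 or 21 for 1-colour array measurement. In that order of days, the 4 mm groups held 3, 8, 11, 5, 4, 5 and 6 arrays and the 8 mm groups 5, 11, 12, 5, 6, 6 and 6, which gives 93 arrays, each of 1 defect. No unoperated bone was analysed here, so day 1 is the reference for time. Every value below is the log2 of the deposited ratio, in which 0 is close to a probe's median over the arrays, so levels cannot be set against each other between genes.

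Cells short of oxygen stabilise the transcription factors HIF-1 alpha and HIF-2 alpha, encoded by Hif1a and Epas1, because the prolyl hydroxylases that mark them for degradation need oxygen. The stabilised factors bind a short DNA core, the hypoxia response element, and raise genes for glucose uptake, glycolysis, lactate export, vessel growth and acid-base balance. A fresh bone wound has lost its vessels and fills with clot and neutrophils, so hypoxia and glycolysis are followed in bone repair together with the return of vessels. HIF proteins are regulated mainly by their stability, which arrays of RNA do not measure.

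Arrays and tissue differed in ways that bear on these genes. Of the 39 members 32 were above the table's lower bound, a ratio of 0.01, on every array, whereas Car12 stood at it on 26 arrays, Pfkfb3 on 15, Hk2 on 8, Slc2a3 and Pfkfb4 on 3 each, Pdk1 on 2 and Aldoc on 1. On 7 arrays, 2 of them from day 1, the level of the never-bounded probes was low, below -0.7. The score of 11 skeletal muscle markers, the mean log2 ratio of the list, was 4.75 ± 3.19 (SD, n = 3) in 4 mm and 3.62 ± 2.66 (n = 5) in 8 mm defects at day 1, and -2.27 ± 0.68 and -2.98 ± 0.77 (n = 6 each) at day 21. All 11 of those markers were lower at day 21 than at day 1. The score of 9 brain markers exceeded 2 on 9 arrays from day 5 onward, and 6 of 7 erythroid markers were higher at day 21 than at day 1. Of 7 osteoblast markers 4 were higher at day 21 than at day 1 and none was lower, and of 6 endothelial markers 5 were higher. Over all genes 16% were higher and 12.1% lower at day 21. Of 8 macrophage markers 5, 6 and 5 were higher at days 3, 5 and 7, with median changes of 1.18, 1.23 and 1.23, and 1 at day 21. The shares of all genes higher at days 3, 5 and 7 were 7.06%, 21.4% and 20.4%. Neutrophil markers had scores of 1.81 ± 0.82 and 2.11 ± 0.66 at day 1 and -1.60 ± 0.64 and -0.92 ± 1.19 (n = 5 each) at day 7 in 4 and 8 mm defects, and -0.96 ± 1.73 and 0.76 ± 0.66 (n = 6 each) at day 21. Fewer cells of a type and less RNA per cell cannot be told apart in such whole-tissue samples.

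**Figure D1:**
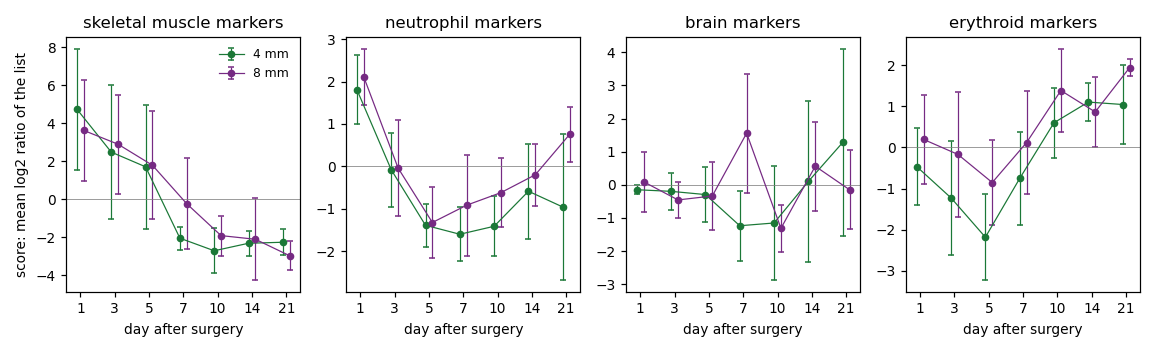
Scores of skeletal muscle, neutrophil, brain and erythroid markers (vertical axis, mean log2 ratio of the list on an array) by day after surgery (horizontal axis, unequally spaced days). Points are group means and bars 1 SD, in green for 4 mm and purple for 8 mm defects, and the muscle score goes from 4.75 and 3.62 at day 1 to -2.27 and -2.98 at day 21.

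The main pattern was a fall of hypoxia and glycolysis genes after day 1. In the values as deposited, more members were called lower on each later day up to day 14. Against day 1, limma with Benjamini-Hochberg adjustment called 1 of 39 members lower at day 3, where 0.601% of all genes were lower, and 6 at day 5, against 2.03%. It called 14 members lower at day 7 (4.95% of all genes), 17 at day 10 (6.07%), 19 at day 14 (7.85%) and 18 at day 21 (12.1%). Fewer members were higher: 1, 3, 4, 3, 4 and 5 on the same days, while 7.06%, 21.4%, 20.4%, 12.5%, 15.8% and 16% of all genes were. In either direction 2, 9, 18, 20, 23 and 23 members were called, and 7.66%, 23.5%, 25.4%, 18.6%, 23.7% and 28.1% of all genes. The median change of the 39 was -0.04, -0.31, -0.60, -1.04, -0.97 and -1.26 at days 3, 5, 7, 10, 14 and 21, beside medians of 0.23, 0.39, 0.33, 0.03, 0.07 and -0.05 over all genes. The share of all values at the lower bound moved with the same days. Its group medians ran from 10.1% to 10.4% at days 1 to 5 and from 15.7% to 21.2% at days 10 to 21. At day 7 they were 13.4% in 4 mm and 10.2% in 8 mm defects. The part of this share in the fall was not tested. All of these comparisons share the 8 arrays of day 1 and are not independent of each other.

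Scaling between arrays moved the early counts, and the rise of the count on each day up to day 14 was not seen with either scaling below. When each array was centred on its median, the median of all genes shifted to -0.02, -0.07 and -0.07 at days 3, 5 and 7, and 8, 20 and 22 members were lower. With quantile normalization 1, 17 and 22 were lower, and the median of the members minus that of all genes was -0.10, -0.73 and -1.01, against -0.27, -0.69 and -0.93 without it. At days 10, 14 and 21 the members lower were 20, 22 and 24 with centring and 19, 21 and 21 with quantile normalization. The muscle score fell over the days, and the brain score spread widely between arrays of some later groups. With both as covariates 1, 5, 9, 15, 15 and 16 members were lower at days 3, 5, 7, 10, 14 and 21. No member that was called in a comparison changed sign under any alternative run.

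**Figure D2:**
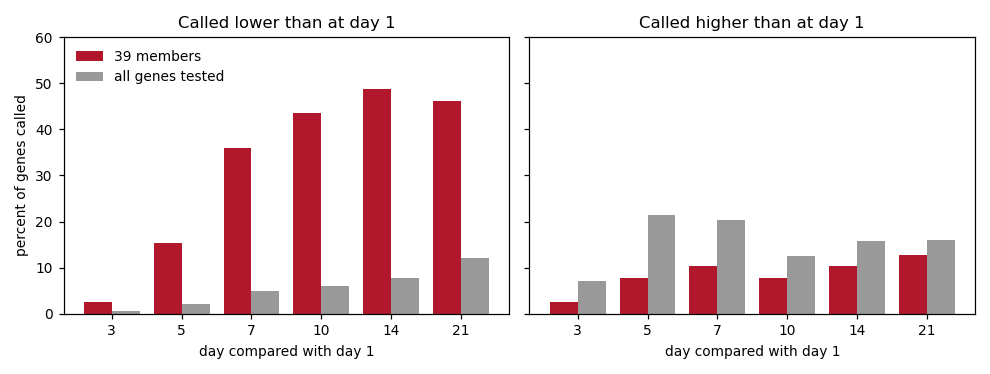
Percent of genes called (vertical axis, adjusted p under 0.05) lower (left) or higher (right) than at day 1, by the later day (horizontal axis), for the 39 members in red and all genes tested in grey. The members exceed all genes on the lower side from day 3, where this is 1 member, to day 21 and lie below them on the higher side on each day.

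**Figure D3:**
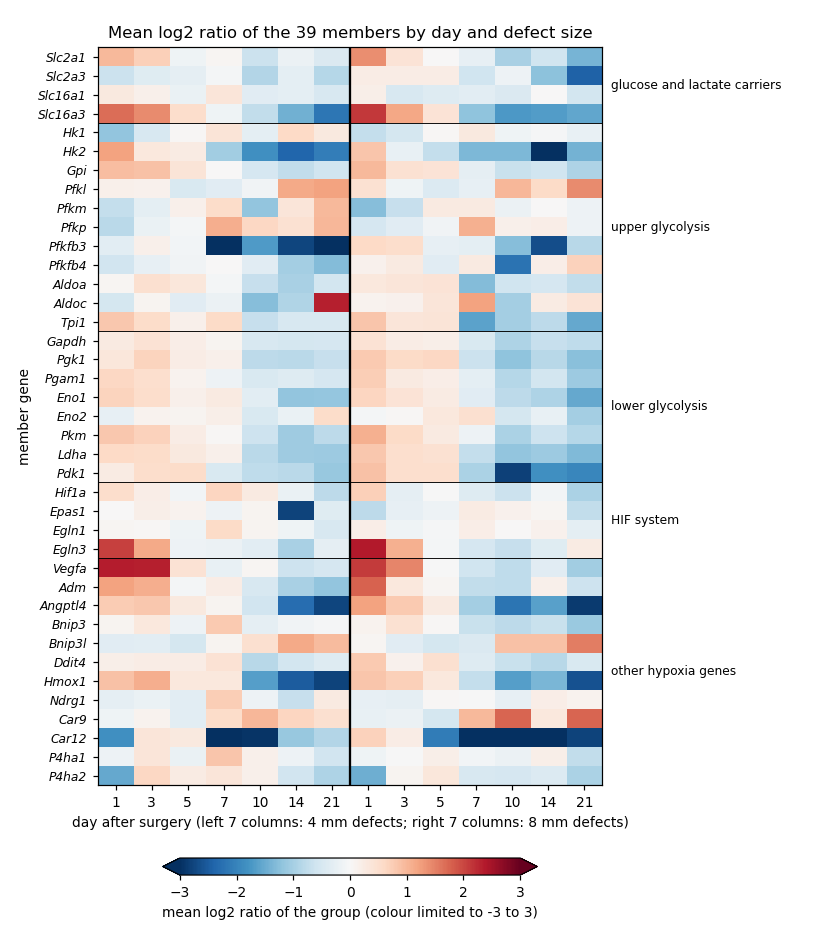
Mean log2 ratio (colour, blue low and red high, limited to -3 to 3) of each of the 39 members (rows, by role) in the 14 groups (columns, days 1 to 21 for 4 mm at left and 8 mm at right). Most rows go from red or white at day 1 to blue at days 10 to 21, and some rows, among them Hk1, Pfkp and Bnip3l, go the other way.

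Among the 4 carriers of glucose and lactate, 2 fell at day 21, where 12.1% of all genes were lower, and 2 did not pass the test. Slc16a3 encodes MCT4, the exporter of lactate from cells that run glycolysis fast. Its 4 mm arrays read 0.72, 2.19 and 2.14 at day 1 and its 8 mm arrays 1.03, 2.94, 1.93, 1.51 and 3.15. At day 21 the 4 mm values lay between -3.64 and -0.64, with a median of -2.25, and the 8 mm values between -2.44 and -0.81, with a median of -1.53, so that no array of day 21 reached the lowest of day 1. Slc16a3 fell by 3.77 ± 0.37 (SE), a 13.6-fold change, with adjusted p = 9.83e-14 (limma), and it was below the day 1 mean on 12 of 12 arrays. The fall was already called at day 5 (-1.43 ± 0.33, adjusted p = 0.000556), day 7 (-2.57 ± 0.38), day 10 (-3.14 ± 0.39) and day 14 (-3.46 ± 0.38). MCT4 is abundant in fast skeletal muscle, and within groups its correlation with the muscle score did not pass the test (r = 0.03, rho = 0.02 over 93 arrays, adjusted permutation p = 0.871 and 0.892). A correlation within groups leaves out the differences between days, and the part of muscle in the fall was not tested.

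Slc2a1, the ubiquitous glucose transporter GLUT1, read -0.13, 1.33 and 1.71 in 4 mm and 0.20, 2.43, 1.03, 0.46 and 2.81 in 8 mm defects at day 1. Its 4 mm values at day 21 lay between -1.69 and 0.54, with a median of -0.15, which overlaps day 1, while the 8 mm values, between -1.97 and -1.11, with a median of -1.26, did not. Slc2a1 fell by 1.23 ± 0.31 by day 5 (adjusted p = 0.00163) and fell by 2.09 ± 0.35 by day 21 (adjusted p = 1.41e-06). The latter is a 4.26-fold change. Slc2a3, the GLUT3 of neurons and white blood cells, differed by -1.43 ± 0.69 (adjusted p = 0.112), with 2 of the day 21 arrays at the lower bound. For Slc16a1, the lactate carrier MCT1, the difference was -0.75 ± 0.41 (adjusted p = 0.165). Whether the 2 carriers of a pair differed was not tested.

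The upper part of glycolysis, from glucose phosphorylation to triose phosphates, moved both ways: of 11 members 3 were lower, 3 higher and 5 not called at day 21. On that day 12.1% of all genes were lower and 16% higher. Gpi, which turns glucose 6-phosphate into fructose 6-phosphate, fell by 1.71 ± 0.30 (adjusted p = 4.65e-06), from 0.93 ± 0.68 (SD, n = 3) and 0.98 ± 1.13 (n = 5) in 4 and 8 mm defects at day 1 to -0.59 ± 0.35 and -0.92 ± 0.16 (n = 6 each). Tpi1, which interconverts the triose phosphates, fell by 1.83 ± 0.41 (adjusted p = 0.000278). Of the 2 hexokinases, which trap glucose in the cell, Hk2 was called lower at day 21 and Hk1, on the probe used, higher. Whether the 2 differed from each other was not tested. Hk2, the insulin- and HIF-responsive form, read 1.58, 1.33 and 0.73 in 4 mm and -0.84, 1.58, 0.89, 0.84 and 1.69 in 8 mm defects at day 1, and at day 21 between -6.64 and -0.44, with a median of -1.39, and between -6.64 and 0.28, with a median of -0.54, respectively. Hk2 fell by 2.77 ± 0.95 by day 21 (adjusted p = 0.0215), where 2 of 12 arrays were at the lower bound, and fell by 3.89 ± 0.97 by day 14 (adjusted p = 0.00154), where 4 of 11 were. The size of these falls depends on where the bound lies. Without replicate 13 of 4 mm day 1 the day 21 value was -2.68 (adjusted p = 0.0524).

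Hk1, the housekeeping hexokinase, read -1.86, -0.79 and -0.87 in 4 mm and -1.38, 0.29, -0.16, -1.38 and -0.95 in 8 mm defects at day 1. At day 7 the 4 mm arrays read 0.51, 0.51, -0.0027, 0.48 and 0.48 and the 8 mm arrays 0.56, 0.95, -0.41, -0.02 and 0.42, and the 4 mm groups did not overlap while the 8 mm groups did. It rose by 1.29 ± 0.34 by day 7 (adjusted p = 0.00242) and was 1.22 ± 0.33 and 0.98 ± 0.33 above day 1 at days 14 and 21 (adjusted p = 0.00388 and 0.0169). With the mean of the 2 Hk1 probes, which correlated at r = 0.58, the differences at days 14 and 21 were 0.595 and 0.591 (adjusted p = 0.142 and 0.12), and without replicate 13 of 4 mm day 1 that of day 21 was 0.81 (adjusted p = 0.088).

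Phosphofructokinase, the committing step, has a liver, a muscle and a platelet isoform. The platelet isoform Pfkp read -1.49, -0.58 and -0.37 in 4 mm and -1.41, 0.90, -0.18, -0.44 and -1.34 in 8 mm defects at day 1, and 0.80, 1.07, 0.95, 0.98 and 1.59 in 4 mm and 1.58, 2.18, 0.00, 0.36 and 1.18 in 8 mm defects at day 7. All 5 arrays of 4 mm defects at day 7 were above the 3 of day 1, whereas the 8 mm groups overlapped. Pfkp rose by 1.72 ± 0.33 by day 7 (adjusted p = 2.42e-05) and was 1.08 ± 0.32 above day 1 at day 21 (adjusted p = 0.00615), and without the arrays of high brain score this was 0.63 (adjusted p = 0.118). For the muscle isoform Pfkm the difference was 1.41 ± 0.51 (adjusted p = 0.0298). That call was lost without replicate 13 of 4 mm day 1 (1.01, adjusted p = 0.183) or replicate 11 of 8 mm day 1 (1.23, adjusted p = 0.0668), both arrays of low level. The liver isoform Pfkl differed by 1.02 ± 0.45 (adjusted p = 0.0789).

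Of the enzymes that make and break the phosphofructokinase activator fructose 2,6-bisphosphate, Pfkfb3 fell by 2.91 ± 1.10 by day 7 (adjusted p = 0.0419). On the arrays that means 4 of 5 values of 4 mm defects at the lower bound and -2.21, -1.52, 0.80, -0.17 and 1.64 in 8 mm defects. Values at the bound have no order. The difference was -1.03 (adjusted p = 0.123) with ratios under 0.25 raised to 0.25, and 13 fits that each left out an array of day 1 or 7 gave adjusted p from 0.051 to 0.0825. Those were 4 mm day 1 replicates 13, 17 and 18, 8 mm day 1 replicates 11, 13, 14 and 16, 4 mm day 7 replicates 12, 13, 14 and 15, and 8 mm day 7 replicates 10 and 12. Pfkfb4 differed from day 1 by -0.07 ± 0.66 at day 21 (adjusted p = 0.946). Aldoa, the aldolase of muscle and most tissues, differed by -0.82 ± 0.36 (adjusted p = 0.0774), and Aldoc, the aldolase of brain, by 1.58 ± 0.81 (adjusted p = 0.137). Aldoc in 4 mm defects at day 14 ran from -6.64, the bound, to 5.19 over 5 arrays, and within groups it followed the brain score (r = 0.70, rho = 0.56 over 93 arrays, adjusted permutation p = 4.5e-05 for both).

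The lower part of glycolysis, counted here together with Ldha and Pdk1, fell almost as a block. Of 8 members 7 were lower at day 10, at day 14 and at day 21, where 6.07%, 7.85% and 12.1% of all genes were. None was higher, and the brain enolase Eno2 was not called. Ldha, the lactate dehydrogenase subunit that turns pyruvate into lactate, read -0.19, 1.32 and 0.64 in 4 mm and -0.89, 2.02, 0.82, 0.49 and 1.63 in 8 mm defects at day 1. The 4 mm values at day 21 lay between -1.27 and -0.63, with a median of -1.19, and the 8 mm values between -1.76 and -1.03, with a median of -1.35, so that only 1 day 1 array, 8 mm replicate 11, lay as low as any of them. Ldha fell by 1.92 ± 0.34 (3.78-fold, adjusted p = 6.9e-06), and it had already differed by -1.70 ± 0.36 at day 10 (adjusted p = 0.000204). At day 5 it had differed from day 1 by -0.33 ± 0.31 (adjusted p = 0.509).

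The other members of this stretch fell as well, except Eno2. By day 21 Eno1, the enolase of most tissues, fell by 2.01 ± 0.32 (4.02-fold, adjusted p = 7.52e-07), from 0.25, 1.15 and 0.57 and -0.43, 0.92, 1.01, 0.94 and 0.84 at day 1 to between -1.79 and -0.80, with a median of -0.93, and between -2.21 and -1.02, with a median of -1.49, in 4 and 8 mm defects, with no overlap. The pyruvate kinase Pkm fell by 1.76 ± 0.30 (adjusted p = 2.29e-06) and phosphoglycerate kinase Pgk1 fell by 1.54 ± 0.32 (adjusted p = 8.29e-05). Phosphoglycerate mutase Pgam1 fell by 1.48 ± 0.26 (adjusted p = 5.32e-06). On its second probe (r = 0.62 with the first) the means of 4 and 8 mm defects were 0.0083 and 0.72 at day 1 and 0.18 and -0.11 at day 21, and with the mean of both probes the difference was -0.91 (adjusted p = 0.00542). Gapdh, often taken as a constant reference gene, fell by 0.98 ± 0.27, or 1.97-fold (adjusted p = 0.00346, and 0.0538 with muscle and brain scores as covariates); its probes correlated at r = 0.97. Eno2 differed by -0.08 ± 0.46 (adjusted p = 0.922) and followed the brain score within groups (r = 0.51, rho = 0.32, adjusted permutation p = 0.00159 and 0.0262). Pdk1, the kinase that keeps pyruvate out of the citric acid cycle, fell by 2.11 ± 0.50 (adjusted p = 0.000738), with no array of either day at the bound. Pgk1 and Ldha moved together from array to array within groups, with r = 0.94 and rho = 0.91 (adjusted permutation p = 4.5e-05 for both), r = 0.92 without the 2 arrays farthest from the median and r = 0.86 after centring of each array.

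**Figure D4:**
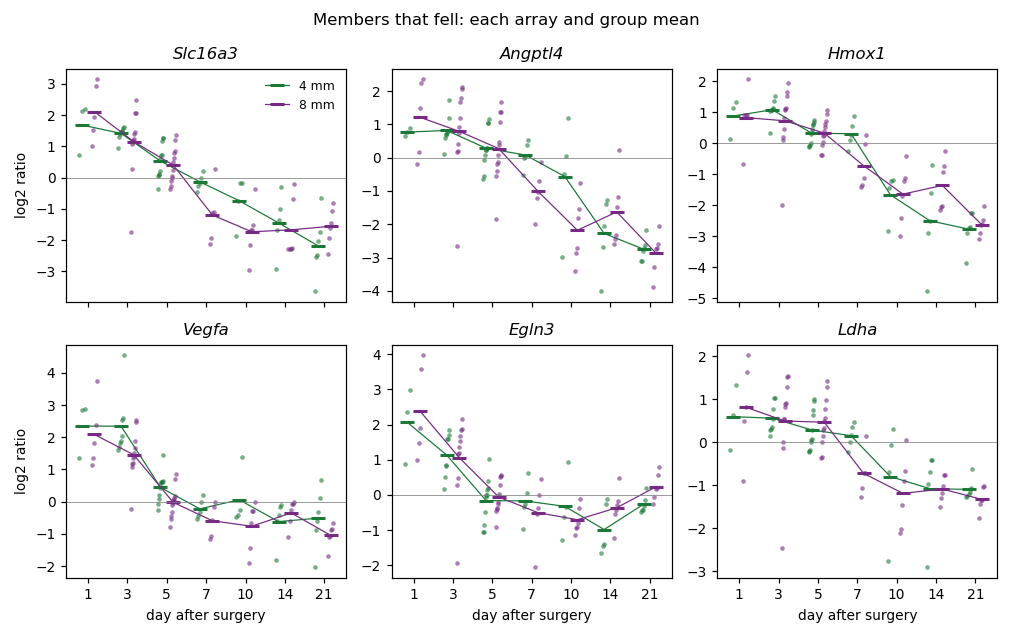
Log2 ratio (vertical axis) of 6 members that fell, by day after surgery (horizontal axis, unequally spaced). Each point is 1 array and each bar a group mean, green for 4 mm and purple for 8 mm defects; Vegfa and Egln3 drop between days 3 and 5, and no Angptl4, Hmox1 or Vegfa value of day 21 reaches those of day 1.

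Of the HIF factors and their hydroxylases, Egln3 and Hif1a fell and Epas1 and Egln1 were not called at day 21. Egln3, a prolyl hydroxylase that HIF itself induces, read 0.87, 2.35 and 2.97 in 4 mm and 1.48, 3.56, 1.91, 1.0 and 3.97 in 8 mm defects at day 1. By day 5 the 4 mm values lay between -1.06 and 1.03, with a median of 0.00, and the 8 mm values between -0.90 and 0.57, with a median of -0.11, and the 4 mm groups overlapped while the 8 mm groups did not. Egln3 was the only member lower at day 3, at -1.13 ± 0.33 (adjusted p = 0.0172), and it fell by 2.33 ± 0.32 by day 5 (adjusted p = 8.84e-09), with -2.89 ± 0.36 at day 14 and -2.24 ± 0.35 at day 21 (adjusted p = 5.22e-07). The day 3 call was lost without replicate 17 or 18 of 4 mm day 1 (adjusted p = 0.0576 and 0.144), without replicate 16 of 8 mm day 1 (0.0783) and under quantile normalization (0.21). Egln1, the main oxygen-sensing hydroxylase, differed from day 1 by -0.52 ± 0.26 at day 21 (adjusted p = 0.129).

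Hif1a RNA read -0.34, 0.92 and 1.0 in 4 mm and -1.18, 1.59, 0.80, 0.66 and 1.73 in 8 mm defects at day 1. At day 21 the values lay between -1.44 and -0.55, with a median of -0.64, in 4 mm and between -1.19 and -0.58, with a median of -0.99, in 8 mm defects, below 0 on all 12 arrays. Hif1a fell by 1.49 ± 0.35 (adjusted p = 0.00058), whereas the difference was -0.50 ± 0.36 at day 7 (adjusted p = 0.331) and -0.76 ± 0.35 at day 14 (adjusted p = 0.109). Its 2 probes correlated at r = 0.95. Epas1 differed by -0.17 ± 0.42 at day 21 (adjusted p = 0.795); its values at day 14 are given with the comparison of sizes.

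Of the other 12 hypoxia genes 4 were lower, 2 higher and 6 not called at day 21, where 12.1% of all genes were lower and 16% higher. Vegfa, the main growth factor for vessels and a classical HIF target, read 1.35, 2.87 and 2.83 in 4 mm and 1.14, 2.38, 1.81, 1.37 and 3.73 in 8 mm defects at day 1. Its mean at day 3 was 2.34 ± 0.96 (SD, n = 8) in 4 mm and 1.46 ± 0.74 (n = 11) in 8 mm defects, then 0.44 ± 0.46 (n = 11) and -0.02 ± 0.48 (n = 12) at day 5. At day 21 the values lay between -2.03 and 0.67, with a median of -0.46, and between -1.69 and -0.67, with a median of -0.97, all below the lowest array of day 1. Vegfa fell by 2.0 ± 0.29 by day 5 (adjusted p = 4.48e-08) and fell by 2.99 ± 0.32 by day 21, a 7.96-fold change (adjusted p = 4.16e-12). On its second probe, which correlated with the first at r = 0.37, the means of 4 and 8 mm defects were 0.57 and 0.76 at day 1 and -0.12 and -0.04 at day 21, and with the mean of both probes the day 21 difference was -1.87 (adjusted p = 1.1e-07).

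Angptl4, an inhibitor of lipoprotein lipase that is induced by hypoxia and by fatty acid receptors, read 0.66, 0.89 and 0.76 in 4 mm and -0.18, 2.25, 1.49, 0.16 and 2.36 in 8 mm defects at day 1. At day 21 it lay between -3.12 and -2.16, with a median of -2.75, and between -3.88 and -2.04, with a median of -2.72, all below every day 1 array. Angptl4 fell by 3.80 ± 0.44, 14-fold and the largest change among the members at day 21 (adjusted p = 5.19e-11), after -1.46 ± 0.46 at day 7 and -2.37 ± 0.46 at day 10. Hmox1, the haem oxygenase that breaks down haem from dead red cells and answers oxidative stress as well as hypoxia, read 0.14, 1.33 and 1.15 and -0.66, 2.06, 0.91, 0.90 and 0.91 at day 1. Its values at day 21 lay between -3.84 and -2.24, with a median of -2.71, and between -3.08 and -2.04, with a median of -2.63, again without overlap. Hmox1 fell by 3.55 ± 0.35 (11.7-fold, adjusted p = 2.16e-13). Adm, which encodes the vessel-widening peptide adrenomedullin, fell by 1.49 ± 0.34 by day 5 (adjusted p = 0.000379) and fell by 2.39 ± 0.37 by day 21 (adjusted p = 3.72e-07), and within groups it moved with Angptl4 (r = 0.66, rho = 0.63, and r = 0.39 after centring of each array). For Ddit4, an inhibitor of mTOR signalling, the difference was -0.91 ± 0.37 at day 21 (adjusted p = 0.0593).

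Bnip3l, the mitophagy receptor that red cell precursors need to clear their mitochondria, went the other way. It read -1.13, -0.30 and 0.39 in 4 mm and 0.89, 0.41, -0.65, -0.20 and -0.12 in 8 mm defects at day 1, and at day 21 between 0.03 and 1.78, with a median of 1.04, and between 1.42 and 1.69, with a median of 1.52, respectively. All 8 mm arrays of day 21 were above all of day 1, and the 4 mm groups overlapped. Bnip3l rose by 1.39 ± 0.30 (2.62-fold, adjusted p = 0.000163), whereas its paralog Bnip3 differed by -0.67 ± 0.38 (adjusted p = 0.182). Within groups Bnip3l followed the score of 7 erythroid markers, with r = 0.74 and rho = 0.77 over 93 arrays (adjusted permutation p = 4.5e-05 for both) and r = 0.77 without the 2 arrays farthest from the median; the part of that score in its rise was not tested.

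P4ha2, a subunit of the prolyl hydroxylase that prepares collagen for folding, was the only member higher at day 3. It read -1.52, -1.49 and -1.62 in 4 mm and -3.14, 0.16, -1.92, -1.23 and -1.22 in 8 mm defects at day 1. At day 3 it lay between -0.07 and 1.19, with a median of 0.53, in 4 mm and between -3.68 and 1.34, with a median of 0.21, in 8 mm defects. The 4 mm groups did not overlap, and the 8 mm groups did. P4ha2 rose by 1.86 ± 0.33 by day 3 (adjusted p = 2.07e-05), was 1.81 ± 0.32 above day 1 at day 5 and 1.44 ± 0.37 at day 7, and differed by 0.57 ± 0.36 at day 21 (adjusted p = 0.237). The other subunit gene, P4ha1, differed from day 1 by 0.31 ± 0.31 at day 3 (adjusted p = 0.697). Ndrg1, a stress gene of growth arrest, differed by 0.45 ± 0.33 at day 21 (adjusted p = 0.318).

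The carbonic anhydrases, which buffer acid at the cell surface, had courses of their own. Car9, often used as a marker of hypoxic tumour tissue, read 0.05, -0.34 and -0.11 in 4 mm and -0.08, -0.50, 0.11, 0.36 and -0.98 in 8 mm defects at day 1. Its values at day 10 were 0.69, 0.73, 1.41 and 1.17 in 4 mm defects and between 0.01 and 3.05, with a median of 1.62, in 8 mm defects, and the 4 mm groups did not overlap. Car9 rose by 1.54 ± 0.51 by day 10 (adjusted p = 0.0248) and was 1.28 ± 0.49 above day 1 at day 21 (adjusted p = 0.0404). With the muscle and brain scores as covariates these were 0.77 and 0.80 (adjusted p = 0.433 and 0.339). The day 10 call was lost without replicate 17 of 4 mm day 1 (adjusted p = 0.0543), and that of day 21 without any of replicates 13, 17 and 18 of 4 mm day 1 or replicates 12 and 16 of 8 mm day 1 (adjusted p from 0.0556 to 0.0847). Car12 fell by 3.69 ± 1.41 by day 7 (adjusted p = 0.044), where 7 of 10 arrays were at the lower bound and 1 of day 1 was. With ratios under 0.25 raised to 0.25 the fall was 1.22 (adjusted p = 0.121), and in 13 fits that each left out an array of day 1 or 7 adjusted p ran from 0.0505 to 0.167: 4 mm day 1 replicates 13 and 17, 8 mm day 1 replicates 11, 12, 14 and 16, 4 mm day 7 replicates 10, 12, 14 and 15, and 8 mm day 7 replicates 10, 12 and 15.

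**Figure D5:**
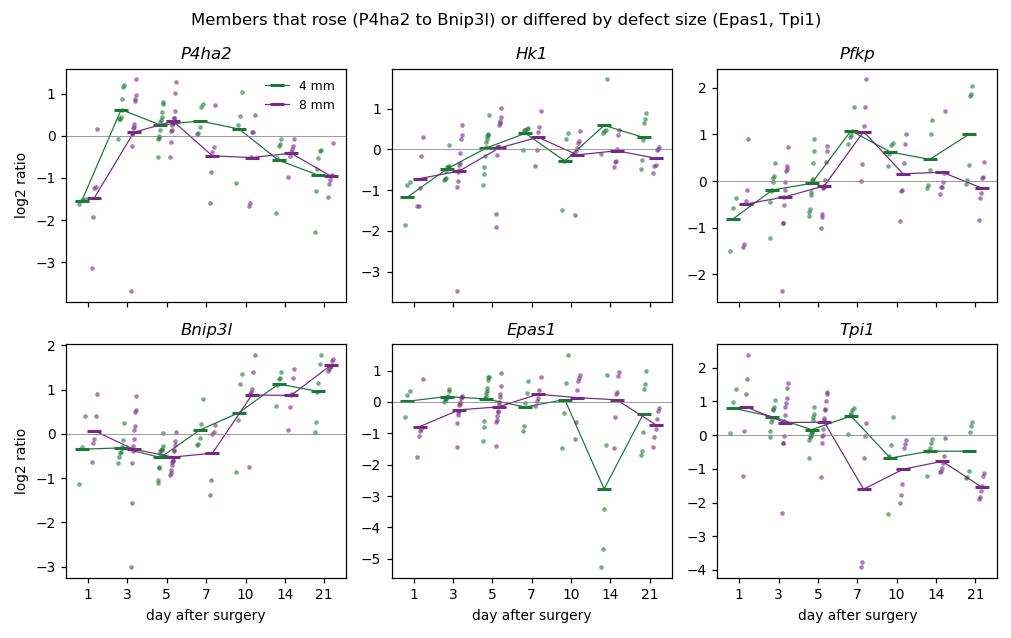
Log2 ratio (vertical axis) of P4ha2, Hk1, Pfkp and Bnip3l, which rose on some days, and of Epas1 and Tpi1, which differed by defect size on 1 day, by day after surgery (horizontal axis, unequally spaced). Each point is 1 array and each bar a group mean, green for 4 mm and purple for 8 mm; P4ha2 steps up between days 1 and 3, all Bnip3l values of 8 mm defects at day 21 lie above those of day 1, and Epas1 is low in 4 mm defects at day 14.

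Promoters of 34 of the 39 members could be matched in RefSeq (assembly GRCr8), each from 250 bases before to 50 after the transcript start that the table uses. For 16 of the 34 that start lies inside the annotated gene, by 50 to 60350 bases, since a gene can have several starts. Not matched were Slc2a3, Pgk1, Bnip3l, Ndrg1 and Hmox1. The core searched was ACGTG or GCGTG, which on the other strand read CACGT and CACGC. It was found in 23 of 34 member promoters (67.6%) and in 13937 of 33469 promoters of the table (41.6%), and ACGTG alone on either strand in 20 members (58.8%) and 19.3% of all. The E-box CACGTG, which contains ACGTG on both strands, was in 5 members (14.7%) and 6.42% of all. For the members 1 window per gene was taken, while the shares of all count every window, without limit to the genes tested. Members were richer in G and C, with a median of 63.2% against 51.7%, and the core itself is rich in them. Among members lower at day 21 the core was in 9 of 16 promoters, among those higher in 3 of 4, and among the others in 11 of 14. A match describes letters in this window and not a bound site. The promoters of the 5 members with the largest called changes that hold the core are printed here 5' to 3' on the gene's strand, with the core in capitals. They show how the number and place of the cores differ: 1 for Angptl4, at -230 relative to a start that lies 1290 bases inside the gene (chr7:15258632-15258931, minus strand), 4 on both sides of a start 50 bases inside Pdk1 (chr3:77113264-77113563, plus), 4 before the start of Slc2a1 (chr5:138002272-138002571, plus), 4 after a start 92 bases inside Car12 (chr8:76169565-76169864, plus) and 2 that overlap as an E-box before a start 51613 bases inside Pfkfb3 (chr17:71944683-71944982, plus).
Angptl4: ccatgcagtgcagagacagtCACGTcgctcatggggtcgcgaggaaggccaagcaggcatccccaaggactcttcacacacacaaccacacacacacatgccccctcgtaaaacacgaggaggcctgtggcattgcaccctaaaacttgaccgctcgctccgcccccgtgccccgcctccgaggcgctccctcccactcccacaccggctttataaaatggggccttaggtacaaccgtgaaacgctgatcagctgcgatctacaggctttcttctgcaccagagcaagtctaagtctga
Pdk1: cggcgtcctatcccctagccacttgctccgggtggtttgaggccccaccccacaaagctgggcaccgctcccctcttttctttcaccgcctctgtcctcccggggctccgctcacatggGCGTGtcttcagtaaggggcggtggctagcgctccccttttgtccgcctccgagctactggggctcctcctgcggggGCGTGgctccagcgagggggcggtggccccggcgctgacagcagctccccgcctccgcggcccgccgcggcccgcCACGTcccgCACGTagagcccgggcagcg
Slc2a1: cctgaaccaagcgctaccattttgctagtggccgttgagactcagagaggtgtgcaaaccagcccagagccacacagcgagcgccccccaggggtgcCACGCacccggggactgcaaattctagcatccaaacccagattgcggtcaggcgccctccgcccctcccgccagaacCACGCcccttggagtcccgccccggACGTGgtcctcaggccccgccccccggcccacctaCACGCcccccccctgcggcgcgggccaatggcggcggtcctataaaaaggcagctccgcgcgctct
Car12: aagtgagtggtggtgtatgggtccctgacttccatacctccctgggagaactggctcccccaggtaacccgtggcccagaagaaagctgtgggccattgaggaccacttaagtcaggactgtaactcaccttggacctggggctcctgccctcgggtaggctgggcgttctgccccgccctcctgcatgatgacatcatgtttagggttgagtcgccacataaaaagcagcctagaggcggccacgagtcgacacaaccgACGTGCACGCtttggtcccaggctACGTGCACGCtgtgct
Pfkfb3: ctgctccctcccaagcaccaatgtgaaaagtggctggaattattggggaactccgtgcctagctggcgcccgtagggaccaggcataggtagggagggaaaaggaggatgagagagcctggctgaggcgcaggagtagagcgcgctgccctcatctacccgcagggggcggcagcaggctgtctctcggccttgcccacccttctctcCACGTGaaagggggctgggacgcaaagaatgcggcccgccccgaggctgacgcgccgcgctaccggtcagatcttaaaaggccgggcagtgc

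No core was found in the matched windows of Vegfa, Egln3, Adm, Slc16a3 and Hk2, which were among the members with the largest falls. Sequence outside these windows of 300 bases was not searched, and the start used for Adm lies 16022 bases inside the annotated gene. The share of promoters with the core was 56.2% among the members that fell and 78.6% among those not called at day 21, and the difference was not tested.

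Steps between neighbouring days were compared as well, and the counts of the earlier steps moved with scaling. Between days 3 and 5, 3 members were lower (0.488% of all genes were) and none was higher (4.74%), with 5.23% of all genes called in either direction. These were Vegfa at -1.69 ± 0.22, Egln3 at -1.20 ± 0.24 and Slc16a3 at -0.82 ± 0.25 (adjusted p = 3.09e-08, 0.000328 and 0.0338). No array of day 3 or 5 was left out singly, so how far these calls rest on 1 array was not tested. With quantile normalization 18 members were lower between days 3 and 5, where 2722 of all genes were called in either direction. With each array centred on its median 14 members were lower, where 1128 of all genes were called. Between days 5 and 7, 5 members were lower (5.79%) and 2 higher (5.43%). Slc16a3 fell by 1.13 ± 0.30 (adjusted p = 0.00754, and 0.0592 without the arrays of high brain score) and Pfkp rose by 1.15 ± 0.26 (adjusted p = 0.00147). The others were Aldoa at -1.06 ± 0.29, Pdk1 at -1.25 ± 0.41, Car12 at -3.35 ± 1.11, Pfkfb3 at -2.60 ± 0.86 and Car9 at 1.18 ± 0.40, and each of these 5 calls was lost in 1 to 7 of the fits without an array of day 7. For Aldoa that array was replicate 13 of 8 mm day 7 (-0.74, adjusted p = 0.0806). For Pdk1 they were 4 mm replicates 14 and 15 and 8 mm replicate 15 (adjusted p from 0.0592 to 0.116). For Car12 they were 4 mm replicates 10, 12, 14 and 15 and 8 mm replicates 10, 12 and 15 (0.0681 to 0.0858), and for Pfkfb3 4 mm replicates 12, 13, 14 and 15 and 8 mm replicates 10, 12 and 14 (0.0527 to 0.0809). For Car9 they were 4 mm replicates 10, 12, 13 and 15 and 8 mm replicates 13, 14 and 15 (0.05 to 0.14).

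Fewer members were called between later days. Between days 7 and 10 Hmox1 was the only member lower (0.188% of all genes were, and 0.025% were higher), at -1.44 ± 0.34 (adjusted p = 0.0359), and this call was lost without 4 mm day 7 replicate 12, 14 or 15, 8 mm day 7 replicate 10, 12 or 15 or 4 mm day 10 replicate 10 (adjusted p from 0.0526 to 0.118). Between days 10 and 14 Epas1 was the only member lower (0.551%), at -1.46 ± 0.40 (adjusted p = 0.0498), a call lost in 18 of the 27 fits without an array (adjusted p from 0.0507 to 0.14). In 6 of the 18 the array belonged to 4 mm day 10 (replicates 10, 11 and 13) or 4 mm day 14 (replicates 16, 17 and 18), and in the other 12 to day 1 or day 7, which enter through the pooled spread. Between days 14 and 21 limma called none of the 39 (1.41% of all genes in either direction and 0.47% higher), with 7 at an unadjusted p under 0.05.

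Few members differed by defect size at the threshold. By limma, 8 and 4 mm defects differed in none of the 39 members at days 1, 3, 5, 10 and 21 or averaged over the 7 days, where 0%, 0%, 0%, 0.382%, 2.44% and 0.426% of all genes were called; 0, 2, 0, 3, 7 and 5 members had an unadjusted p under 0.05. At day 7, where 0.463% of all genes were lower and 0.0939% higher, Tpi1 was lower in 8 mm defects, with a difference of -2.17 ± 0.55 (adjusted p = 0.0412), and 8 members had an unadjusted p under 0.05. The median difference at day 7 was -0.43 over all genes and -0.49 over the 39 members. The mean level of the never-bounded probes was 0.44 in 4 mm and -0.11 in 8 mm defects, and its part in these differences was not tested. The Tpi1 values were 0.03, 0.81, 0.75, 0.59 and 0.67 in 4 mm and -0.02, 0.37, -3.92, -0.69 and -3.76 in 8 mm defects, so 2 of the 5 larger defects, replicates 13 and 15, stood apart from all others. The call was lost without either of these arrays (adjusted p = 0.367 and 0.115), without any of the 4 mm arrays, replicates 10, 12, 13, 14 and 15 (0.0551 to 0.0986), and under quantile normalization (0.0694). Aldoa, which precedes Tpi1 in the pathway, read -0.16, 0.13, -3.86, 0.05 and -2.69 on the same 8 mm arrays and was not called (-1.24 ± 0.49, adjusted p = 0.208).

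At day 14 Epas1 was higher in 8 mm defects by 2.84 ± 0.54 (adjusted p = 0.00107), where 1.26% of all genes were higher. It read 0.87, -4.69, -3.42, -5.27 and -1.36 in 4 mm defects and -0.48, 0.95, 0.33, 0.83, 0.25 and -1.46 in 8 mm defects. Replicates 16, 17 and 18 of the smaller defects were the low ones, and replicate 15 was among the highest of both groups. Epas1 was also the 1 member whose course over the days differed by size (interaction F test, adjusted p = 0.0347), against 0.607% of all genes. The interaction was lost without replicate 16, 17 or 18 (adjusted p = 0.126, 0.0949 and 0.148), and the day 14 difference was 1.49 (adjusted p = 0.131) under quantile normalization and 1.37 (adjusted p = 0.168) with ratios under 0.25 raised to 0.25. Hif1a, its paralog, differed between sizes at day 14 by 0.10 ± 0.45 (adjusted p = 0.973). Over the days within a size, the F test called 23 members for the smaller and 28 for the larger defects, where 36% and 43.2% of all genes did; the groups of the 2 sizes differ in number, so the counts are no test of a difference.

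Other genes of the same pathways, from lists that hold no member, moved both ways. Of 18 measured glycolysis and lactate genes, 5 were higher and 4 lower at day 21, where 16% and 12.1% of all genes were (limma), and the median change of the list was -0.31 beside -0.05 over all genes. Ldhb, the lactate dehydrogenase subunit that favours pyruvate, was higher by 2.76 ± 0.51 and Pfkfb2 by 4.43 ± 1.00, while the muscle mutase Pgam2 was lower, at -3.81 ± 0.95, as was glycogen synthase Gys1, at -2.03 ± 0.77. Of 25 other HIF pathway genes 2 were higher and 9 lower, with a median of -0.48. The lower ones included the inducible nitric oxide synthase Nos2 (-4.07 ± 0.80), the HIF partner Arnt (-2.60 ± 0.98), Epo (-3.19 ± 1.11) and the HIF-inhibiting hydroxylase gene Hif1an (-2.45 ± 0.88). The collagen cross-linking gene Loxl2 was higher, by 1.24 ± 0.36 at day 21 and 3.18 ± 0.38 at day 7. For the genes of these lists, arrays at the lower bound were not counted and the alternative fits were not examined. All 11 skeletal muscle markers were lower at day 21 as well, and their part in these changes was not tested.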

How the data were processed

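RNA of 93 calvarial defects was hybridised with Cy3 to Agilent whole-genome rat arrays, per the labels' protocols. The deposited values are linear ratios, with a median of 1 over the arrays for 87.8% of 41090 probes and a lower bound of 0.01 that holds 13.4% of values; how the authors scaled them is not given in the sources used here, and log2 was taken with no pseudocount. Probes with 1 gene symbol in the platform annotation (20932) were used, 17415 of them matched to RefSeq genes of GRCr8; of several probes the one with the fewest values at the bound, then the largest interquartile range, stood for the gene. The 14 day-by-size groups entered a single cell-means model (limma 3.58.1, R 4.3.3, prior df 1.9), with two-sided moderated tests and Benjamini-Hochberg adjustment over 15974 genes within each of 22 comparisons, threshold 0.05. P-values measure the spread between samples, which carry a rat number in their titles. Later days against day 1 weight both sizes equally. Correlations used residuals from group means over 93 arrays, 100000 shuffles within groups (SciPy 1.17.1) and adjustment over 18 pairs (1e-05 is the smallest unadjusted p these shuffles can give); Pfkm with the muscle score, Vegfa with Egln3 (r = 0.43, 0.27 after centring of each array) and Bnip3 with Pdk1 (r = 0.28, 0.11 after centring) also passed, and the 9 other pairs not described in the results did not. Members and lists were chosen with earlier results of these data known. Named were called members, up to 10 with the largest rise and fall per comparison, those with an interaction, paralogs of a called member, and up to 4 genes of each other list. Alternatives were quantile normalization, centring, other probe rules, a raised bound, genes above the bound only, fits with array weights, with a block for rat number, with the compared groups only, with marker scores as covariates, and leaving out arrays of low level, of high brain score or singly. Tested on simulated data of 15974 genes, the code recovered 36% of changes of 1.5 log2 units and 63% of 3 for day 7 against day 1, and 10% and 50% for 8 against 4 mm at day 7. Protein sequences were not used here.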

Additional observations from a re-analysis of the deposited data

Results flagged for a closer look

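Among 390 sets of values of a member in a group of 4 to 10 arrays, 37 (9.5%) held an array whose gap to its nearest neighbour exceeded the critical value of Dixon's test; chance gives about 1 in 20. The values are log2 ratios, and -6.64 is the lower bound. In 8 mm defects at day 1 this was Eno1 on replicate 11 (-0.43, others 0.84 to 1.01). In 4 mm defects at day 3 these were Hk1 on replicate 13 (0.10, others -0.75 to -0.40), Pfkfb3 on replicate 16 (-1.18, others -0.14 to 0.73), Slc16a3 on replicate 19 (0.96, others 1.31 to 1.62), Vegfa on replicate 22 (4.55, others 1.60 to 2.61), Bnip3 on replicate 21 (-0.62, others 0.15 to 0.81) and Hmox1 on replicate 13 (0.33, others 1.04 to 1.51). In 4 mm defects at day 7 these were Hk1 on replicate 13 (-0.0027, others 0.48 to 0.51), Pfkfb3 on replicate 10 (0.44, others -6.64 to -6.64), Tpi1 on replicate 10 (0.029, others 0.59 to 0.81), Pgam1 on replicate 15 (-1.0, others -0.04 to 0.22) and Car12 on replicate 13 (2.20, others -6.64 to -6.64). In 8 mm defects at day 7 these were Pgam1 on replicate 15 (0.40, others -0.60 to -0.32) and Hif1a on replicate 15 (0.54, others -0.74 to -0.52). In 4 mm defects at day 10 these were Pfkm on replicate 10 (-5.15, others 0.06 to 0.26), Vegfa on replicate 11 (1.39, others -0.47 to -0.27) and Hmox1 on replicate 10 (-2.82, others -1.44 to -1.19). In 8 mm defects at day 10 these were Slc2a3 on replicate 11 (1.09, others -0.69 to -0.12), Hk1 on replicate 11 (-1.62, others -0.04 to 0.45), Pfkfb3 on replicate 13 (-6.64, others -0.55 to 0.71), Pdk1 on replicate 11 (-6.64, others -2.54 to -1.38) and Bnip3l on replicate 11 (-0.76, others 0.89 to 1.78). In 4 mm defects at day 14 these were Pfkl on replicate 15 (-0.74, others 1.41 to 1.88), Ldha on replicate 17 (-2.90, others -0.97 to -0.41), Car12 on replicate 20 (-6.64, others -0.20 to 0.58) and P4ha2 on replicate 17 (-1.84, others -0.53 to -0.09). In 8 mm defects at day 14 these were Slc2a3 on replicate 15 (-6.64, others -0.96 to 0.77), Pfkp on replicate 11 (1.5, others -0.28 to 0.17), Eno2 on replicate 11 (1.61, others -0.76 to -0.47) and Pdk1 on replicate 10 (-6.64, others -1.88 to 0.00). In 4 mm defects at day 21 these were Hk2 on replicate 14 (-6.64, others -1.79 to -0.44), Pfkfb4 on replicate 12 (-6.64, others -0.53 to 0.56), Ldha on replicate 12 (-0.63, others -1.27 to -1.07), Car12 on replicate 13 (-6.64, others -0.42 to 0.94), P4ha1 on replicate 15 (-1.55, others -0.54 to -0.20) and Hif1a on replicate 15 (-1.44, others -0.86 to -0.55). In 8 mm defects at day 21 this was Hk2 on replicate 12 (-6.64, others -1.19 to 0.28). Replicate 11 of 8 mm day 10 accounted for 4 of the 37, and it is among the 7 arrays of low level.

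Epas1 was the member whose course over the days differed between 4 and 8 mm defects (interaction F test of limma, adjusted p = 0.0347), with its low values on 3 arrays of 4 mm defects at day 14.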

How the results depend on the processing

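The counts of called members that moved by over 1.5 times are set against main counts of 2 for day 3 against day 1, 9 for day 5 against day 1, 20 for day 10 against day 1, 3 for day 5 against day 3, 7 for day 7 against day 5, 1 for day 10 against day 7, 1 for day 14 against day 10, 0 for day 21 against day 14, 1 for 8 against 4 mm, day 7, 1 for 8 against 4 mm, day 14, 0 for 8 against 4 mm, day 21 and 1 for the interaction F test. With each array centred they were 9 for day 3 against day 1, 21 for day 5 against day 1, 14 for day 5 against day 3, 13 for day 7 against day 5, 2 for day 10 against day 7, 2 for 8 against 4 mm, day 7. With array weights they were 5 for day 3 against day 1, 16 for day 5 against day 1, 16 for day 5 against day 3, 15 for day 7 against day 5, 2 for day 10 against day 7, 1 for day 21 against day 14, 11 for 8 against 4 mm, day 7, 2 for 8 against 4 mm, day 21, 3 for the interaction F test. With only the compared groups fitted they were 1 for day 3 against day 1, 12 for day 10 against day 1, 5 for day 5 against day 3, 15 for day 7 against day 5, 0 for day 10 against day 7, 0 for day 14 against day 10, 0 for 8 against 4 mm, day 7, 0 for 8 against 4 mm, day 14. Without the 7 low-level arrays they were 4 for day 3 against day 1, 14 for day 5 against day 1, 9 for day 5 against day 3, 14 for day 7 against day 5, 1 for day 21 against day 14, 5 for 8 against 4 mm, day 7, 1 for 8 against 4 mm, day 21. With quantile normalization they were 18 for day 5 against day 1, 18 for day 5 against day 3, 17 for day 7 against day 5, 0 for day 10 against day 7, 0 for day 14 against day 10, 0 for 8 against 4 mm, day 7, 0 for 8 against 4 mm, day 14, 0 for the interaction F test. With ratios under 0.25 raised to 0.25 they were 5 for day 5 against day 3, 0 for day 14 against day 10, 0 for 8 against 4 mm, day 7, 0 for 8 against 4 mm, day 14, 0 for the interaction F test. With only genes above the bound on all arrays tested they were 5 for day 5 against day 3, 4 for day 7 against day 5, 0 for day 10 against day 7, 0 for day 14 against day 10. With muscle and brain scores as covariates they were 4 for day 7 against day 5, 2 for 8 against 4 mm, day 7. Without the 9 arrays of high brain score they were 4 for day 7 against day 5, 0 for day 10 against day 7, 1 for day 21 against day 14, 4 for 8 against 4 mm, day 7, 2 for 8 against 4 mm, day 14, 2 for the interaction F test. With the mean of all probes they were 0 for day 14 against day 10, 0 for 8 against 4 mm, day 7. Leaving out 1 array at a time in the groups of 3 to 5 arrays, 27 fits, gave 0 to 1 for 8 against 4 mm, day 7, 0 to 1 for day 10 against day 7, 0 to 1 for day 14 against day 10, 0 to 2 for day 21 against day 14, 1 to 2 for day 3 against day 1, 3 to 7 for day 7 against day 5 and 0 to 1 for the interaction F test; the counts of the other comparisons stayed within 1.5 times. Day 5 against day 3 and the sizes at days 3, 5 and 21 lost none of their own arrays in these fits, which therefore say nothing about their stability. The rat number as a fixed block gave 3 for day 7 against day 5, 0 for day 10 against day 7, 0 for day 14 against day 10, 0 for 8 against 4 mm, day 7, 0 for the interaction F test. The rat number within a day as a random block gave 0 for day 14 against day 10. Whether a single rat carried both defects is not given in the sources used here. Of 34 pairs of 4 and 8 mm arrays with one number and day, 2 correlated above 0.1 (0.337 and 0.179, both at day 5). The median was 0.01, and -0.001 for arrays of different numbers. The consensus correlation was 0.041, and 13 of 68 arrays correlated best with their own number. Low correlations between arrays cannot show that 2 samples came from different rats. Of 161 calls of a member in a comparison, none changed sign in any alternative, 122 held in all 27 fits without an array (among them 3 of day 5 against day 3, whose own arrays were never left out) and 100 in all other alternatives; muscle and brain scores as covariates ended 36, fits of the compared groups alone 32 and the fixed block 29. The causes were not tested. The number of arrays limits precision, signal over background is unknown, and ratios at the lower bound have no order.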

Other observations

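Genes that carry pyruvate into the mitochondria and through the citric acid cycle were measured beside the members. Of 12 measured, 4 were higher and none lower at day 7, when 20.4% and 4.95% of all genes were: the pyruvate dehydrogenase subunits Pdha1 (1.70 ± 0.34) and Pdhb (1.36 ± 0.41), Sucla2 (1.10 ± 0.34) and Ogdh (1.10 ± 0.32). At day 21 Pdha1 and Pdhb were higher by 1.07 ± 0.33 and 1.49 ± 0.40, while Dlat (-1.04 ± 0.41) and citrate synthase Cs (-0.89 ± 0.28) were lower. The difference between this list and the glycolytic members was not tested. Mxi1, a HIF-induced antagonist of Myc, was the only gene of the pathway lists that differed by defect size, higher in 8 mm defects at day 10 by 1.66 ± 0.32 (limma, adjusted p = 0.00284).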
